A study of Rattus norvegicus with 8 samples.

Results

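The 5 genes described here are Umod, Slc12a1, Kcnj1, Bsnd and Ptger3, which encode uromodulin, 3 proteins of salt transport and a prostaglandin receptor of the thick ascending limb of the kidney. They were chosen by name, with earlier results of these data known. Their probes were found through the transcript accession that the array files give for each probe. All 5 had at least 1 probe, 7 probes in all, and all 7 were kept by the filter on dim probes, so the 5 are counted among 21420 genes and unnamed transcripts tested. Umod was 14.4-fold lower in kidney RNA of rats given allopurinol than in control RNA, while the relative level of Slc12a1, which is transcribed in the same cells, was at 121%, 91.3% and 79.2% of its control mean in 3 of the 4 treated samples and at 17.4% in the fourth. Ptger3 rose 1.94-fold. The differences in Kcnj1 and Bsnd did not pass the test.

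The thick ascending limb is the segment of the nephron that reabsorbs salt without water. Sodium, potassium and chloride enter its cells from the urine through the cotransporter NKCC2 (Slc12a1), potassium returns to the urine through the channel ROMK (Kcnj1), and chloride leaves towards the blood through channels that need the subunit barttin (Bsnd). The same cells make uromodulin, the most abundant protein of normal urine, and carry the prostaglandin E2 receptor EP3 (Ptger3), which lowers cyclic AMP and so opposes vasopressin.

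RNA came from whole kidney samples, per the tissue label, although the series title speaks of renal tubules. The rats were male, of the SD (Sprague-Dawley) strain and 10 weeks old. The control group of 4 received 0.5% methylcellulose, the vehicle, for 4 weeks, and the treated group of 4, labelled APL, received 150 mg/kg for 4 weeks. APL is read as allopurinol, the inhibitor of xanthine oxidase named in the title as the agent that produces the fibrosis model. The labels do not say whether the 4 samples of a group came from separate animals, so the p-values measure only the spread between these samples, which may be technical.

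Each sample was run on 1 single-colour array, so precision rests on 4 arrays a group. On the control arrays the signal's 75th percentile was 272 to 307, on the allopurinol arrays 378 to 497, and every level below is a signal divided by that percentile of its own array, called the relative level. Replicates 1 and 2 of both groups shared 1 slide and replicates 3 and 4 shared the other. Over all genes the log2 levels correlated at 0.897 to 0.937 between control arrays, at 0.919 to 0.961 between allopurinol arrays, and at 0.802 to 0.858 between the groups. With limma and Benjamini-Hochberg adjustment, 2557 genes were higher and 2472 lower after allopurinol at an adjusted p under 0.05. Called genes made up 23.5% of all tested (11.9% higher, 11.5% lower). Without division by the percentile the split was 5881 higher and 1142 lower, and the median log2 difference of all genes moved from -0.03 to 0.61. The groups did not overlap for 29.9% of genes, with the treated arrays above the controls for 14% and below them for 15.9%.

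Against that background, 2 of the 5 genes passed the test, Ptger3 higher and Umod lower, and the same 2 were the ones whose groups did not overlap. The stretch of genome around the transcription start, from 250 bases before to 50 after it, is shown for these 2 genes, which moved in opposite directions, and for Slc12a1, which shares the cells of Umod. The sequences are from RefSeq and the coordinates from its assembly GRCr8, which is newer than the rat build rn4 named in the array header. Umod lies at chr1:183260967-183261266 on the minus strand, Slc12a1 (its first listed start) at chr3:132859409-132859708 on the plus strand and Ptger3 at chr2:249264832-249265131 on the plus strand. Capitals mark matches to TATAAA.
Umod: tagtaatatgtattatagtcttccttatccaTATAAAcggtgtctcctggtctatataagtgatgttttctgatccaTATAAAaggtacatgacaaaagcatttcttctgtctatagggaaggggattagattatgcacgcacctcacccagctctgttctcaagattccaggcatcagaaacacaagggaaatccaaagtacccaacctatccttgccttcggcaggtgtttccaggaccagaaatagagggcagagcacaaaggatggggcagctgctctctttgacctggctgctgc
Slc12a1: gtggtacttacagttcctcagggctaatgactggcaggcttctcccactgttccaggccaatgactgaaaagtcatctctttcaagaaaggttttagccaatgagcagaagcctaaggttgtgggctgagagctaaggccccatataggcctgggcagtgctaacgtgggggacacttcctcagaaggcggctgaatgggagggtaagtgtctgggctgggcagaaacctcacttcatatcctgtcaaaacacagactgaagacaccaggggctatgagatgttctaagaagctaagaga
Ptger3: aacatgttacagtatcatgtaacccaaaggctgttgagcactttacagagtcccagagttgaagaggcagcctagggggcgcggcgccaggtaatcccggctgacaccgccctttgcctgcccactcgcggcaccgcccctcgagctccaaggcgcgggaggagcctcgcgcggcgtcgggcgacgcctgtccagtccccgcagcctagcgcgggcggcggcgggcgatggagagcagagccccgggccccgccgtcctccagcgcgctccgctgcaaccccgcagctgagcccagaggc

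The TATA box letters TATAAA were found at -219 and -173 of the Umod window, counted from the start, and at no place in the Slc12a1 and Ptger3 windows. One of the 2 Kcnj1 windows held them at -41. The GC content was 44.3% for Umod, 50.7% for Slc12a1 and 69.7% for Ptger3, beside a median of 51.7% over 33469 promoter windows of the same length. A search on both strands, as for TATAAA, for AAGGTCA, a half-site of nuclear receptors, found no match in any of the 7 windows listed for the 5 genes. Among all windows, 14.2% held TATAAA and 4.61% AAGGTCA. Since only TATAAA matched in the 7 windows, no matches of different motifs overlapped there.

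Umod encodes a glycoprotein that is anchored to the urinary face of thick limb cells, cut off by the protease hepsin and released as filaments. Its probe (A_64_P022545) had relative levels of 33.6, 48.3, 32.8 and 31.1 in control replicates 1 to 4. In allopurinol replicates 1 to 4 the relative levels were 2.74, 11.98, 4.84 and 0.240. Every treated sample was below every control sample, but the treated samples differed far more among themselves, over a 49.8-fold range against 1.55-fold in the controls. As a share of the control mean, here and below the geometric mean, the treated samples stood at 7.64%, 33.4%, 13.5% and 0.67%.

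The log2 difference of Umod was -3.85 ± 1.06 (moderated standard error, n = 4 in each group), with a 95% interval from -6.30 to -1.40 and an adjusted p of 0.0345 by limma. The exact two-sided permutation test gave p = 0.0286, the smallest that the 70 splits of 8 arrays allow. On the log2 scale the standard deviation of Umod was 0.29 in the controls and 2.41 after allopurinol, and the latter exceeded that of 99.4% of genes tested. The limma fit used a common variance for both groups, so its standard error, interval and p-value do not allow for this unequal spread. The difference itself was at the 1.5 percentile of all log2 differences. Within slide 1 it was -2.81 (adjusted p = 0.156) and within slide 2 it was -4.89 (adjusted p = 0.204), each with 2 arrays a group. Without allopurinol replicate 4, the lowest sample, it was -2.73 ± 0.50 with an adjusted p of 0.0125. The call was also kept without allopurinol replicate 2 (adjusted p = 0.0213) and was lost without any 1 of the other 6 arrays, where the adjusted p was 0.0522 to 0.0777. In tissue RNA, fewer thick limb cells and less Umod RNA in each cell cannot be told apart.

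**Figure D1:**
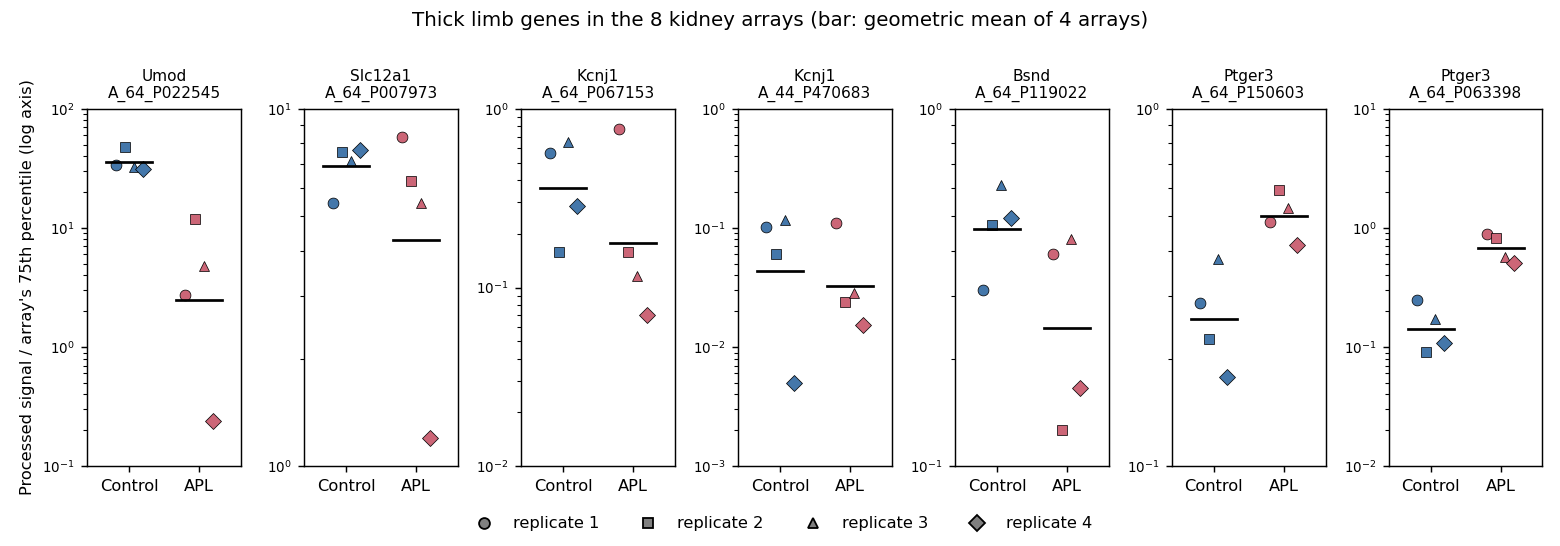
Relative level (signal divided by the array's 75th percentile, log axis) of the 7 probes of Umod, Slc12a1, Kcnj1, Bsnd and Ptger3 on the 4 control and 4 allopurinol (APL) arrays; each point is 1 array and each bar the geometric mean of 4. The Umod points of the treated samples spread from 0.240 to 11.98, all below the controls, while those of Ptger3 all lie above the controls.

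Slc12a1 encodes NKCC2, the target of loop diuretics such as furosemide. Its probe (A_64_P007973) had relative levels of 5.44, 7.57, 7.16 and 7.67 in control replicates 1 to 4. After allopurinol the relative levels were 8.33, 6.29, 5.47 and 1.20 in replicates 1 to 4. Replicate 1 was above the control range, replicates 2 and 3 were inside it and replicate 4 was below it. The log2 difference was -0.68 ± 0.57 (n = 4 each, limma adjusted p = 0.423; exact permutation p = 0.371), with an interval from -2.00 to 0.64, which leaves room for a fall as well as a rise. Without allopurinol replicate 4 it was -0.07 ± 0.25 (adjusted p = 0.879). Within slide 1 the log2 difference was 0.17 and within slide 2 it was -1.53. Without scaling between arrays it was -0.04: the processed signals were 1667, 2122, 1945 and 2354 in the controls and 3862, 2380, 2716 and 578 after allopurinol, so treated replicates 1 to 3 were above the controls on that scale.

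The gap between Umod and Slc12a1 was thus measured in the same samples. The log2 change of Umod minus that of Slc12a1 was -3.17. The log2 ratio of Umod to Slc12a1 had a standard deviation of 0.32 over the control arrays and 1.45 over the treated arrays, and the groups did not overlap (exact permutation p = 0.0286, n = 4 each). Over the 10 pairs among the 5 genes the adjusted p was 0.0715, so this difference did not pass after adjustment. Its exact p was the smallest that 4 arrays a group allow. The adjusted p therefore depended on how many of the 10 pairs reached that value. The lowest treated sample was replicate 4 for both genes.

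Kcnj1 encodes ROMK, which returns potassium to the urine and so keeps the cotransporter supplied. Its brighter probe (A_64_P067153) had relative levels of 0.567, 0.159, 0.655 and 0.287 in control replicates 1 to 4. In the treated samples they were 0.769, 0.158, 0.116 and 0.0699. Replicate 1 was the highest of all 8 arrays, at 213% of the control mean, while the other treated samples stood at 43.9%, 32.1% and 19.4%. The groups overlapped, and the log2 difference of -1.02 ± 0.78 (n = 4 each) did not pass the test (limma adjusted p = 0.376; interval -2.82 to 0.77). Without allopurinol replicate 1 it was -1.73 ± 0.56, with an adjusted p of 0.075. Within slide 1 it was 0.22 and within slide 2 it was -2.27. The dimmer probe (A_44_P470683) gave -0.41 ± 1.07 and was not well above background on control replicate 4.

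Bsnd encodes barttin, a subunit that chloride channels of these cells need to reach the cell surface; it is also made in the inner ear. Its probe (A_64_P119022) had relative levels of 0.311, 0.474, 0.613 and 0.495 in control replicates 1 to 4. The treated samples had 0.391, 0.126, 0.433 and 0.166. Replicates 1 and 3, at 85.1% and 94.1% of the control mean, lay within the control range, and replicates 2 and 4, at 27.4% and 36.1%, lay below it. The log2 difference of -0.91 ± 0.45 (n = 4 each) did not pass the test (limma adjusted p = 0.181; exact permutation p = 0.143), and its interval ran from -1.96 to 0.13. Within slide 1 it was -0.79 and within slide 2 it was -1.04.

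Ptger3 encodes EP3, a prostaglandin E2 receptor coupled to the inhibitory G protein. The probe brighter by mean log2 level over all 8 arrays (A_64_P150603) had relative levels of 0.286, 0.228, 0.379 and 0.177 in control replicates 1 to 4. In the treated samples they were 0.483, 0.592, 0.528 and 0.415. All 4 treated samples were above all 4 controls, at 161% to 230% of the control mean, and their log2 standard deviation of 0.22 was the smallest of the 5 genes after allopurinol. The log2 difference was 0.96 ± 0.27 (n = 4 each, interval 0.33 to 1.59), with an adjusted p of 0.0385 by limma. The exact permutation test gave p = 0.0286.

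The second Ptger3 probe (A_64_P063398) had relative levels of 0.248, 0.0912, 0.171 and 0.108 in the controls and 0.895, 0.8294, 0.565 and 0.504 in the treated samples. It gave a larger rise, 4.74-fold, with a log2 difference of 2.25 ± 0.37 (limma adjusted p = 0.00428 over probes). Both probes rose, and the difference between them was not tested. In every treated sample this second probe had the higher relative level of the pair. For the brighter probe the call was kept only when control replicate 3, the highest control, was left out (adjusted p = 0.021), and was lost without any 1 of the other 7 arrays (adjusted p up to 0.0938). With the slide as a block the adjusted p was 0.0546, and with the replicate number as a block it was 0.0673. Within slide 1 the log2 difference was 1.07 and within slide 2 it was 0.85. EP3 is also carried by other kidney cells, among them the principal cells of the collecting duct.

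Across the 10 pairs of the 5 genes, 4 had log2 ratios whose groups did not overlap. These were Umod with Slc12a1, Umod with Ptger3 (difference -4.81), Slc12a1 with Ptger3 (-1.64) and Bsnd with Ptger3 (-1.87), each with an adjusted p of 0.0715 by the exact permutation test (n = 4 each). None of the 10 pairs passed after adjustment, but these 4 had the smallest exact p possible, so the adjustment could not rank them by evidence. Among the 3 transport genes the differences were small beside their spread: 0.35 for Slc12a1 and Kcnj1, 0.24 for Slc12a1 and Bsnd, and -0.11 for Kcnj1 and Bsnd, with standard deviations of the log2 ratio between 1.01 and 1.34 over the treated arrays.

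The order of the treated samples differed between the 5 genes. Replicate 4 was the lowest for Umod, Slc12a1, Kcnj1 and Ptger3, and replicate 2 was the lowest for Bsnd. Replicate 1 was the highest for Slc12a1 and Kcnj1, replicate 2 for Umod and Ptger3, and replicate 3 for Bsnd. The sample with the most Umod after allopurinol therefore had the least Bsnd.

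Beside these 5, a list of thick limb genes gave 22 others, all of them tested. Of the 22, 7 were lower and 3 higher after allopurinol (limma, adjusted p under 0.05), beside 11.5% and 11.9% of all genes, and the remaining 12 did not pass. With the 5 included, the median log2 difference of the 27 was -0.68 against -0.03 for all genes, and 14 of the 27 had groups that did not overlap, beside 29.9% of all genes. Without scaling between arrays the median of the 27 was -0.04, against 0.61 for all genes. Several listed genes are also transcribed in other segments.

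The lower genes included the precursor of epidermal growth factor, which the thick limb and the distal convoluted tubule release into urine. Egf had relative levels of 7.29, 4.30, 1.0 and 2.96 in control replicates 1 to 4 and of 0.0258, 0.0833, 0.0196 and 0.0582 in the treated samples. All treated samples were at 2.68% of the control mean or less, and the log2 difference was -6.29 ± 0.69 (limma adjusted p = 0.000586, n = 4 each). Egf kept its call without each of the 8 arrays in turn, and with normexp correction and the 75th percentile it was at -3.41 (adjusted p = 0.0122).

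Cldn10, a claudin that lets sodium pass between thick limb cells, had relative levels of 6.55, 5.66, 3.50 and 7.69 in the controls and 0.885, 0.983, 0.247 and 0.231 after allopurinol. All 4 treated samples were below the controls, and the log2 difference was -3.57 ± 0.56 (adjusted p = 0.00317). Casr, the calcium-sensing receptor that restrains salt uptake in this segment, had 1.04, 0.662, 0.366 and 0.289 in the controls and 0.180, 0.103, 0.0142 and 0.0197 after allopurinol. Its log2 difference was -3.45 ± 0.87 (adjusted p = 0.0254), and with normexp background correction and the 75th percentile it was -0.98 and no longer called. The Casr call also ended when control 1, control 2, treated 3 or treated 4 was left out.

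The sodium pump subunit Fxyd2 fell by 2.86 and the basolateral potassium channel Kcnj16 fell by 1.75 on the log2 scale, with adjusted p-values of 0.000138 and 0.00336 by limma. Both calls were kept without each of the 8 arrays in turn. Cldn16, which with Cldn19 forms the paracellular path for magnesium and calcium, had a log2 difference of -1.17 ± 0.35, and its call (adjusted p = 0.0462) was lost without any 1 of 7 of the arrays and kept without allopurinol replicate 2; it was also lost with the slide or the replicate number as a block and without scaling. Cldn19 itself was at 0.49 ± 0.83 and did not pass. Ppp1r1a, an inhibitor of protein phosphatase 1, had -1.30 ± 0.35 (adjusted p = 0.0318), and its call was lost without any 1 of 5 arrays (control 1, 2 and 3, treated 1 and 4) and without scaling.

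The higher genes among the 22 included Kng1 and Slc4a2. Kng1, a kininogen with close relatives in the rat, and the anion exchanger Slc4a2 had log2 differences of 1.53 ± 0.46 and 0.79 ± 0.23 (limma adjusted p = 0.0461 and 0.0403). Each of these 2 calls was kept in only 1 of the 8 fits that left out an array and was lost with the replicate number as a block, that of Kng1 also with the slide as a block.

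**Figure D2:**
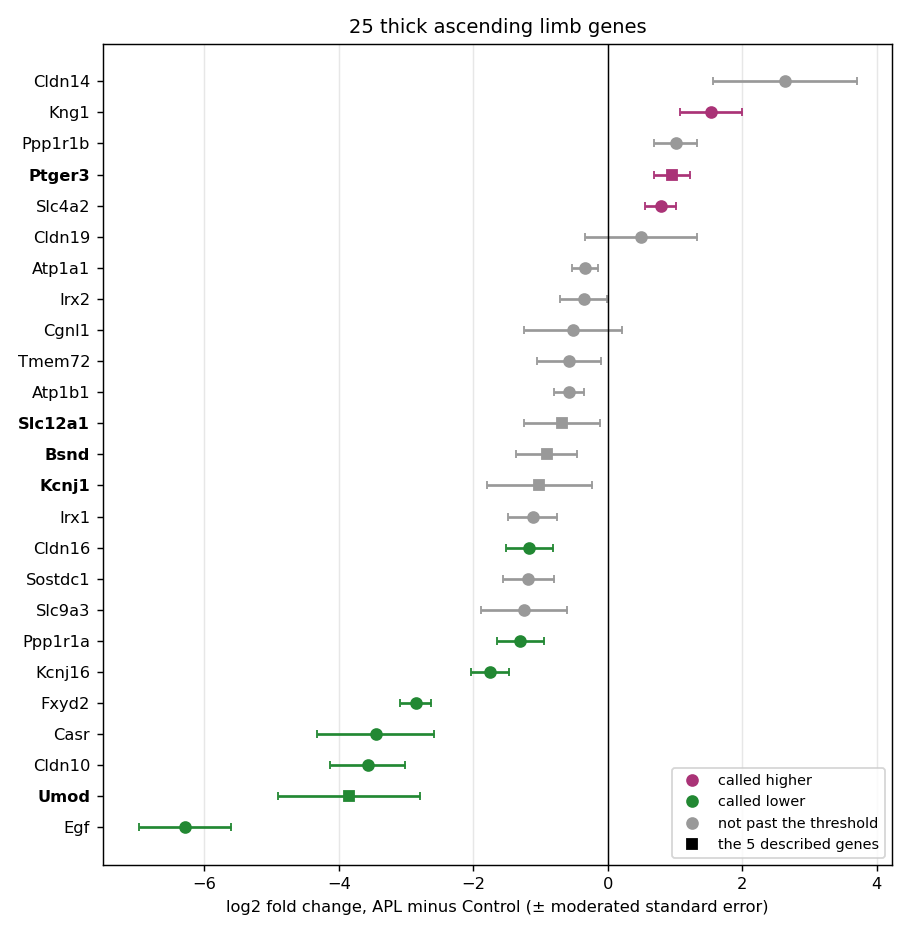
Log2 difference between allopurinol and control for 25 of the 27 thick limb genes, in order of size, with the moderated standard error as bars; green points were lower and purple points higher at an adjusted p under 0.05, grey points did not pass, and squares are the 5 genes described here. Egf (-6.29) and Umod (-3.85) are at the low end; 8 of the 25 fell and 3 rose.

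The 4 treated samples were not alike in these genes. The mean log2 level of the 27 was 0.82, 1.03, 0.66 and 0.41 in control replicates 1 to 4, and 0.04, 0.16, 0.06 and -0.75 in the treated samples. Replicate 4 stood apart from the other treated samples. It was the lowest of the 4 treated arrays for 13 of the 27 genes (48.1%), while over all 21420 genes it was the lowest for 24.2%. Umod, Slc12a1, Kcnj1 and Ptger3, described above, were among the 13. Median log2 distances from the control mean were -0.44, -0.59, -0.65 and -1.12 in treated replicates 1 to 4, and 16, 18, 18 and 20 of the 27 genes were below their control mean. Without allopurinol replicate 4, 5 of the 27 were lower and 3 higher, beside 1777 lower and 1609 higher of all 21420 genes. The smaller count was not particular to replicate 4. Leaving out 1 array at a time gave 4 to 9 lower, with 4 lower without control replicate 1.

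**Figure D3:**
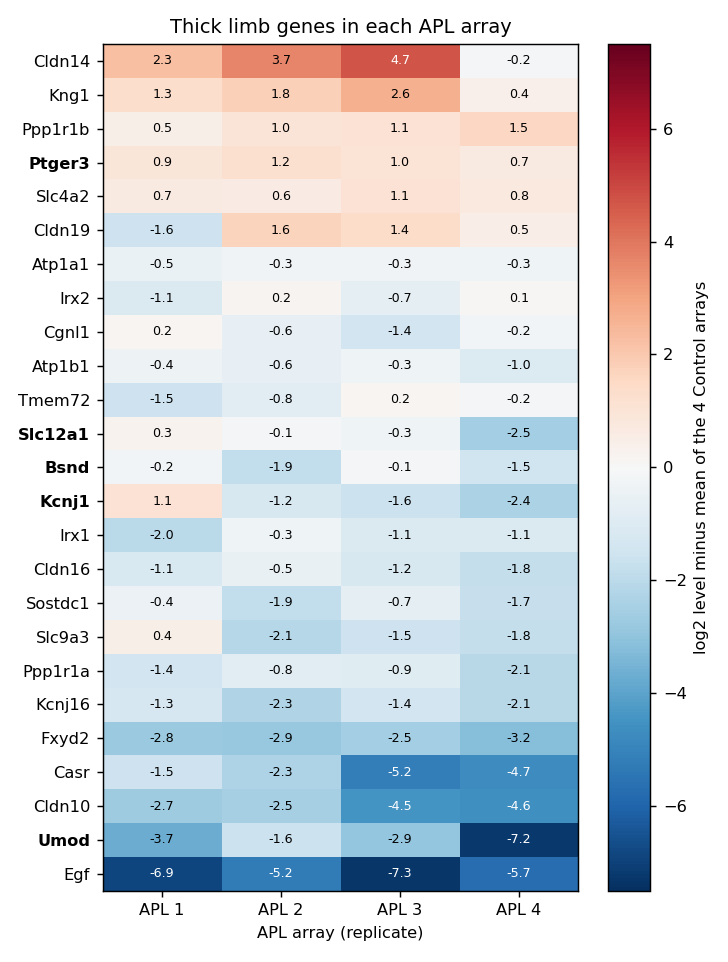
Log2 level minus the mean of the 4 control arrays for 25 of the 27 thick limb genes (rows) in allopurinol replicates 1 to 4 (columns), blue below and red above the control mean. Slc12a1 is at 0.27, -0.13, -0.34 and -2.52, and Umod at -3.71, -1.58, -2.89 and -7.22.

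A list of genes tied to Umod by function or as a relative was read next. Of 9 listed, all tested, 2 were lower and 0 higher (limma, adjusted p under 0.05), beside 11.5% and 11.9% of all genes. At an unadjusted p under 0.05 by limma, 3 were lower and 0 higher. The median log2 difference of the 9 was -0.76, against -0.03 for all genes. Hpn, hepsin, the protease that releases uromodulin, fell by 2.45 (± 0.31, adjusted p = 0.00114), from relative levels of 35.5 to 49.3 in the controls to 5.40 to 12.3. Gp2, the closest relative of uromodulin, was at -2.52 ± 1.25 and did not pass.

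Of 14 listed kinases and partners of NKCC2, 12 had a probe and 11 were tested; 1 was higher, 0 were lower (limma; 1 at an unadjusted p under 0.05), beside 11.9% and 11.5% of all genes, and the median log2 difference was 0.04. The kinases that switch the cotransporter on did not pass: Stk39 (SPAK) was at 0.89 ± 0.63, Wnk1 at -0.32 ± 0.37 and Wnk4 at 0.72 ± 0.56 on the log2 scale. The higher gene was Maged2, whose loss causes a transient antenatal form of Bartter syndrome. It had relative levels of 1.03, 1.34, 0.900 and 0.898 in the controls and 4.46, 6.63, 4.58 and 8.45 after allopurinol. The log2 difference was 2.50 ± 0.28 (adjusted p = 0.000588), highest in replicate 4, and was kept without each array in turn.

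For EP3, the prostaglandin E2 pathway list held 16 genes, of which 14 were tested. With Ptger3 among them, 5 were higher and 0 lower (limma, adjusted p under 0.05), beside 11.9% and 11.5% of all genes. Without Ptger3, 4 of the 13 others were higher. At an unadjusted p under 0.05 by limma, 1 was lower. The median log2 difference was 0.80, against -0.03 for all genes. Gnai2, an inhibitory G protein subunit of the kind EP3 acts through, rose by 1.55 ± 0.20 (adjusted p = 0.00138). Relative levels were 2.94 to 3.70 in the controls and 7.45 to 11.3 in the treated samples. The other inhibitory subunits on the list, Gnai1 and Gnai3, did not pass. Gnai1 was 2-fold lower (limma adjusted p = 0.127) and was the gene lower at the unadjusted threshold. Gnai3 was at 0.12 ± 0.21 on the log2 scale (limma adjusted p = 0.713). Ptgs1, a cyclooxygenase, had a log2 difference of 3.70 ± 0.85 (adjusted p = 0.018), with 2 control arrays above background. Cbr1, which converts prostaglandin E2, had 5.40 ± 1.04 (adjusted p = 0.0084), with 3 control arrays above background. Pla2g4a, the phospholipase that frees arachidonic acid, had 2.01 ± 0.57 (adjusted p = 0.0383), and its call was lost without any 1 of 5 arrays (control 2 and 4, treated 1, 3 and 4), and with the slide or the replicate number as a block. Over the other settings the lowest values were 0.68 for Ptgs1, 2.67 for Cbr1 and 0.93 for Pla2g4a. Among these settings, Ptgs1 lost its call only when probes had to be well above background on all 8 arrays (limma adjusted p = 0.245). That filter left its other probe, at 1.36. The receptors Ptger1 (0.65 ± 1.29) and Ptger2 (1.42 ± 0.86) did not pass, and Ptger4 and Ptgs2 were not kept by the filter on dim probes.

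Of 10 listed hormone receptors and parts of the cyclic AMP pathway of the thick limb, 2 were lower and 2 higher (limma), beside 11.5% and 11.9% of all genes, and the median was -0.05. Pth1r, the parathyroid hormone receptor, which the proximal tubule also carries, fell by 2.43 (± 0.34, adjusted p = 0.00185), and Gcgr, the glucagon receptor, fell by 4.33 (± 0.74, adjusted p = 0.00481), but with normexp correction and the 75th percentile the value of Gcgr was -0.89 and not called (adjusted p = 0.453). Pde4d, which breaks down cyclic AMP, rose by 2.81 ± 0.62 (adjusted p = 0.0149); its other probe gave 1.07, and the lowest value over the other settings was 1.32. Calcr, the calcitonin receptor, had 3.58 ± 1.06 (adjusted p = 0.0435) with 1 control array above background, and its call was kept in only 1 of the 8 fits that left out an array, the one without control replicate 1, and was lost with the slide or the replicate number as a block. Avpr2, the vasopressin receptor whose signal EP3 opposes, was at 0.04 ± 0.33 and did not pass.

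Marker lists of other kidney cells were counted the same way, to be read beside the 11.9% higher and 11.5% lower of all genes. Of 12 proximal tubule genes 9 were lower and 2 higher, and the mean log2 level of the list was 3.26 to 4.22 in the controls and 0.85 to 1.38 after allopurinol. On the log2 scale Slc34a1, a phosphate transporter, fell by 4.53 (± 0.39). The 2 higher genes were Slc5a2, at 3.04 ± 0.66, and Slc5a12, at 4.61 ± 0.93 with 1 control array above background. Of 8 tubular injury genes 6 were higher and 0 lower, from list means of -2.93 to -2.17 to list means of 2.62 to 2.95; Havcr1 (KIM-1) rose by 5.17 ± 0.38 and Lcn2 (NGAL) by 7.58 ± 0.32 on the log2 scale. Of 7 endothelial genes 6 were lower and 0 higher, from -1.09 to 0.03 down to -4.15 to -3.64. The 7 distal convoluted tubule genes tested gave 1 higher and 1 lower, and Slc12a3, the thiazide-sensitive cotransporter there, was at -0.25 ± 0.64. Among 9 collecting duct principal cell genes 2 were higher and 0 lower, from -3.90 to -2.28 in the controls to -1.99 to -0.50. The 9 intercalated cell genes gave 0 calls either way (limma; 0 at an unadjusted p under 0.05 too), with a median of 0.70. At that unadjusted p the other counts of 0 were 0 injury genes lower, 0 endothelial genes higher and 0 principal cell genes lower.

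The lists for the remaining cell types were small, and their counts stand beside 23.5% of all genes called in either direction. Thin limb and inner medulla genes were higher in 3 and lower in 1 of 7, fibroblast and mesangial genes higher in 2 and lower in 1 of 7, immune genes higher in 2 and lower in 0 of 6 (0 at an unadjusted p under 0.05), and podocyte genes higher in 2 and lower in 1 of 6. Of 6 macula densa genes 2 were tested and 0 called (0 at an unadjusted p under 0.05), and Nos1, Ptgs2, Pappa2 and Mcub, among its defining markers, were not tested. In replicate 4, the lowest for Umod, the fibroblast and mesangial list mean was 1.95, the highest of the 4 treated samples, and the distal convoluted tubule mean was -2.54, the lowest. The proximal tubule mean of replicate 4 was 0.85, at the low end of the treated range, and its injury mean of 2.92 was within the range of the others. The part of any of these in the changes of Umod and Slc12a1 was not tested.

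The genes whose pattern over the 8 arrays was most like that of each of the 5, by Pearson's r of log2 levels, are given as a description, since a shared group difference alone raises r. For Umod they included Prok2 (0.981) and Spmip4 (0.979). For Slc12a1 they were Pik3r5 (0.972), Wnt8a (0.943) and Rph3a (0.940), and for Kcnj1 they were Arl4d (0.967), Copg1 (0.965) and Selenoo (0.930). Galc (0.982), Tmem135 (0.958) and Cpne5 (0.939) were the most like Bsnd, and Sox5 (0.990), Tnfrsf12a (0.986) and Nfyb (0.982) the most like Ptger3. None of the genes named here was one of the 27 thick limb genes. The log2 differences of these genes were unlike in size: Prok2 had -0.71 (adjusted p = 0.121) beside -3.85 for Umod, and Sox5 had 3.32 (adjusted p = 0.0287) beside 0.96 for Ptger3.

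**Figure D4:**
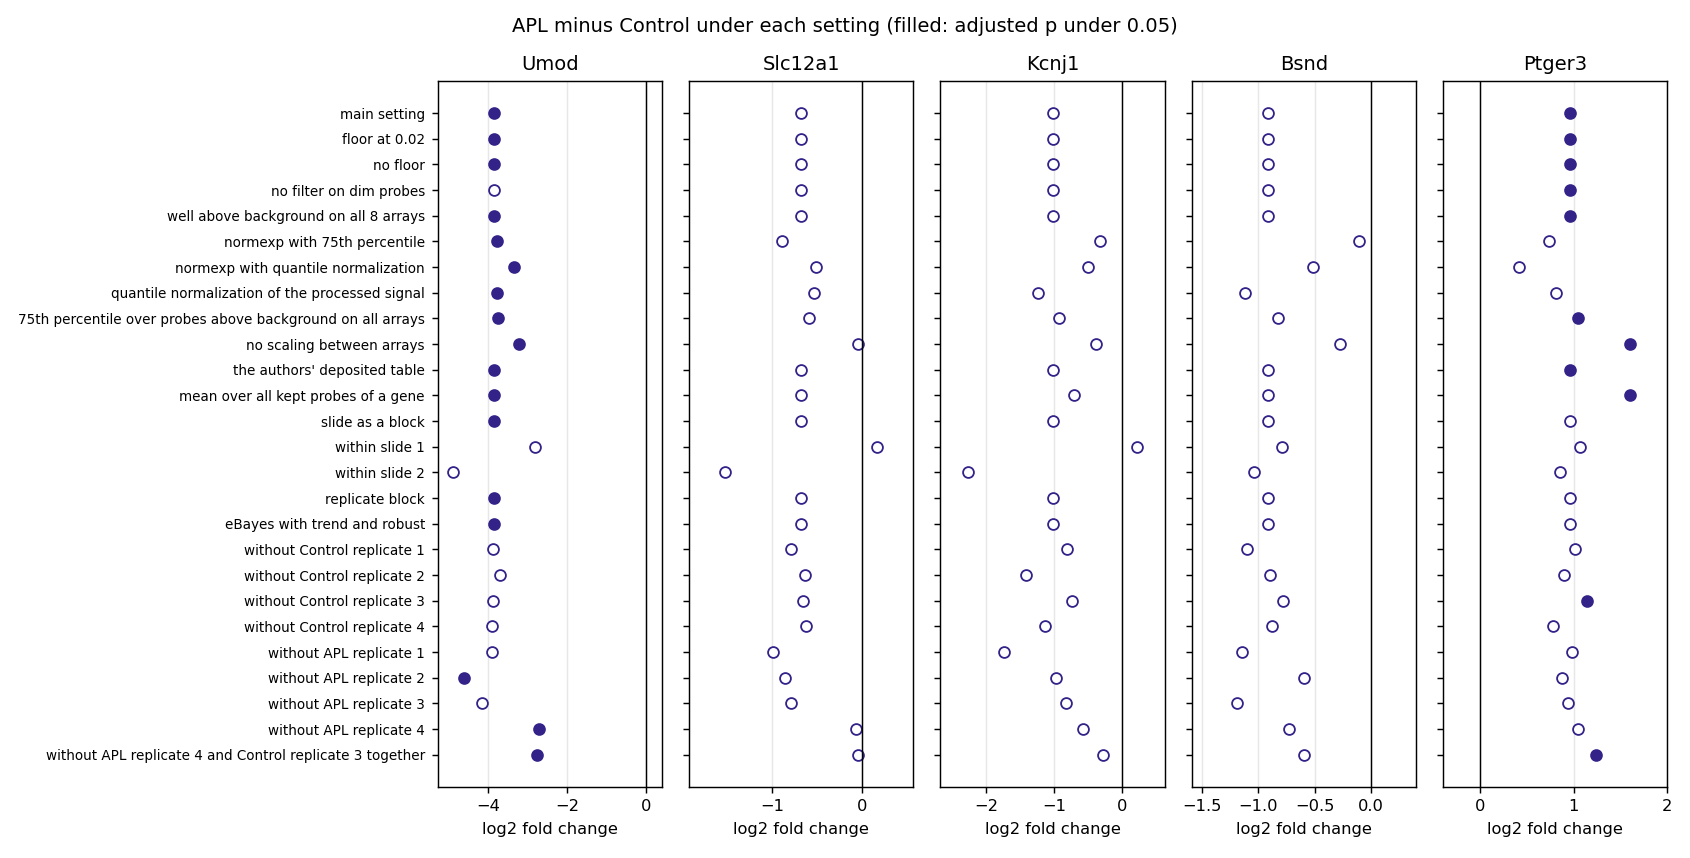
Log2 difference between allopurinol and control for Umod, Slc12a1, Kcnj1, Bsnd and Ptger3 under each way of processing the arrays and without each array in turn; filled points have an adjusted p under 0.05. Umod stays between -4.89 and -2.73, and Slc12a1 comes to -0.07 without allopurinol replicate 4.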

How the data were processed

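Agilent Feature Extraction 10.5.1.1 read the arrays and gave each spot a linear intensity with background and spatial trend already removed, per the file headers. The authors' deposited table holds log2 values; set against the scanner values it was log2 intensity minus the array's 75th percentile, centred per probe (column medians 0.0338, 0.0662, 0.0771 and 0.00597 for control and -0.0724, 0.0186, -0.136 and -0.0445 for allopurinol replicates 1 to 4), with r of at least 0.999 on each array, and it served as an alternative. Here, spots flagged as non-uniform (2 to 64 an array) were left out, spots of a probe averaged, the intensity divided by the 75th percentile, floored at 0.005 and put on a log2 scale. Probes well above background on at least 4 of 8 arrays were kept, and a gene was represented by its brightest kept probe. No probe was saturated. Symbols came from RefSeq (GRCr8) by accession, which named 18643 of 30367 probes. Tests were limma 3.58.1 in R 4.3.3 (lmFit, eBayes), Benjamini-Hochberg adjusted over 21420, and exact permutation of single values. The fit was tested on simulated data. Members and lists were chosen with earlier results of these data known. The text names the 5, for each list up to 4 called genes of largest change and genes tied to the 5 by known biology, and the 3 genes most correlated with each; Fxyd2, Kcnj16, Ppp1r1a, Kng1, Slc4a2, Gp2 and the cell type examples were chosen after their values were seen. Some genes the rule names are not reported here. Alternatives covered background correction, scaling, filter, floor, probe choice, slide, replicate number and leaving out arrays.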

Additional observations from a re-analysis of the deposited data

Results flagged for a closer look

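The mean log2 level of the 27 thick limb genes in allopurinol replicate 4, -0.75, lay below the other 3 treated arrays, which stood at 0.04, 0.06 and 0.16. The gap to its nearest neighbour was 0.872 of the range of the 4 arrays, above Dixon's critical value for 4 samples. It was the only 1 of 42 groups of 4 arrays screened that passed this value, and chance alone passes about 1 in 20.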

How the results depend on the processing

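Over the 14 settings that kept all 8 arrays in 1 fit, Umod was called in 13, with log2 differences of -3.85 to -3.21, while Slc12a1, Kcnj1 and Bsnd were called in none and kept their sign. Without a filter on dim probes the Umod value stayed at -3.85 but the adjusted p was 0.0571, with more genes tested. The other Ptger3 probe, a further setting chosen after seeing the data, was called. Over the same 14 settings, Ptger3 was called in 8. It lost its call with normexp at the 75th percentile (0.73, adjusted p = 0.212), normexp with quantile normalization (0.41), quantile normalization of the processed signal (0.81), the slide as a block (0.96), the replicate block (0.96, adjusted p = 0.0673) and a robust trended fit (0.96); the cause was not tested. Normexp at the 75th percentile called 1056 genes higher and 974 lower, and 0 thick limb genes higher. Under it 6 pairs passed at an adjusted p of 0.0476: Umod with Slc12a1 (-2.89), Kcnj1 (-3.45), Bsnd (-3.68) and Ptger3 (-4.52), Slc12a1 with Ptger3 (-1.63) and Bsnd with Ptger3 (-0.84). Each had the smallest possible exact permutation p of 0.0286, and the adjusted p was lower because more pairs reached it. Slc12a1 with Kcnj1 (-0.56) and Slc12a1 with Bsnd (-0.79) changed sign. With normexp and quantile normalization 2 thick limb genes were higher, and Slc12a1 with Kcnj1 (-0.01) and Kcnj1 with Bsnd (0.02) changed sign, as the latter did with the mean over probes (0.20). No scaling gave 5881 higher and 1142 lower. The slide block left 2 thick limb genes higher.

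Within slide 1, with 2 arrays a group, Umod was at -2.81, Slc12a1 at 0.17, Kcnj1 at 0.22 and Ptger3 at 1.07, with 509 genes higher and 513 lower and 0 and 3 thick limb genes. Within slide 2, Umod was at -4.89 and Ptger3 at 0.85, with 376 higher and 278 lower and 0 and 2 thick limb genes. Fewer arrays were fitted in both.

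Leaving out 1 array at a time gave -4.61 to -2.73 for Umod (call kept in 2 of 8), 0.78 to 1.15 for Ptger3 (1 of 8), 1609 to 2205 genes higher, and 0 to 3 thick limb genes higher and 4 to 9 lower. Without both allopurinol replicate 4 and control replicate 3, chosen after seeing the data, 1372 genes were higher and 1426 lower, with 5 thick limb genes lower, and Umod (-2.77) and Ptger3 (1.24) kept their calls. The other Ptger3 probe, also chosen after seeing the data, gave 2.25.

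Samples of the same replicate number deviated together at correlations of 0.011, 0.010, 0.047 and -0.015, beside -0.083 to 0.090 for samples of unlike number. These values gave no sign of pairing by number, though a weak pairing could not be seen this way. The replicate block left Umod called (-3.85, adjusted p = 0.0484), 1644 genes higher and 1616 lower, and 1 thick limb gene higher. With 4 arrays a group, none of 10 pairs could fall below an exact p of 0.0286, and for Kcnj1, Bsnd and Ptger3 the intervals stayed over 1 log2 unit wide.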
